A study of Mus musculus with 20 samples.

Results

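Complement was described through 9 genes in mesenchymal cells of the mouse liver. They are C1ra, C2, C4b, C3, Cfb, Cfd, C6, C7 and the regulator Serping1, taken by symbol from tables of 24848 genes in 20 RNA sequencing libraries, and all 9 were found. The cells were portal mesenchymal stem cells (PMSC), which are stromal cells of the portal tract, and hepatic stellate cells (HSC), the pericytes of the sinusoids that store vitamin A, and they came from the livers of C57BL/6 mice. Each kind was sequenced without culture (fresh PMSC, fresh HSC) and as the myofibroblasts, contractile cells that make scar matrix, which grew from it: PMSC-MF-3d and PMSC-MF-7d after 3 and 7 days, and HSC-MF-7d. Sample titles give 7 days for HSC-MF-7d and the series description gives 3 days, so the time of that group is uncertain. Every group held 4 libraries, with no treatment or altered allele named in the labels. No label states that replicate libraries stem from different animals or dishes, so a p-value here reflects library-to-library spread, which may be technical.

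Complement is a set of blood and surface proteins in which each step cuts or assembles the next. The classical pathway is started by C1q with its proteases C1r and C1s, which cut C4 and C2. The alternative pathway uses factor B, cut by factor D. Both build convertases that cleave C3, and the terminal components C5 to C9 then assemble a pore in a target membrane. Hepatocytes are known as the main source of the circulating proteins, and macrophages and fibroblasts are known to make some of them.

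Complement transcripts were abundant in both fresh cell types and scarce in the myofibroblasts grown from them. In fresh PMSC the 9 transcripts summed to 11990 to 17950 TPM (a level scaled for transcript length and for the library), or 1.2% to 1.79% of all TPM. In fresh HSC they summed to 2140 to 4354 TPM. The sums were 55.6 to 96.6 TPM for PMSC-MF-3d, 32.6 to 142.9 for PMSC-MF-7d and 181.3 to 235.4 for HSC-MF-7d. No cultured library reached any fresh one. The HSC-MF-7d sums consisted mostly of Serping1, at 170.4 to 223.2 TPM. In bulk RNA, fewer cells of a type and less RNA per cell cannot be told apart.

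**Figure D1:**
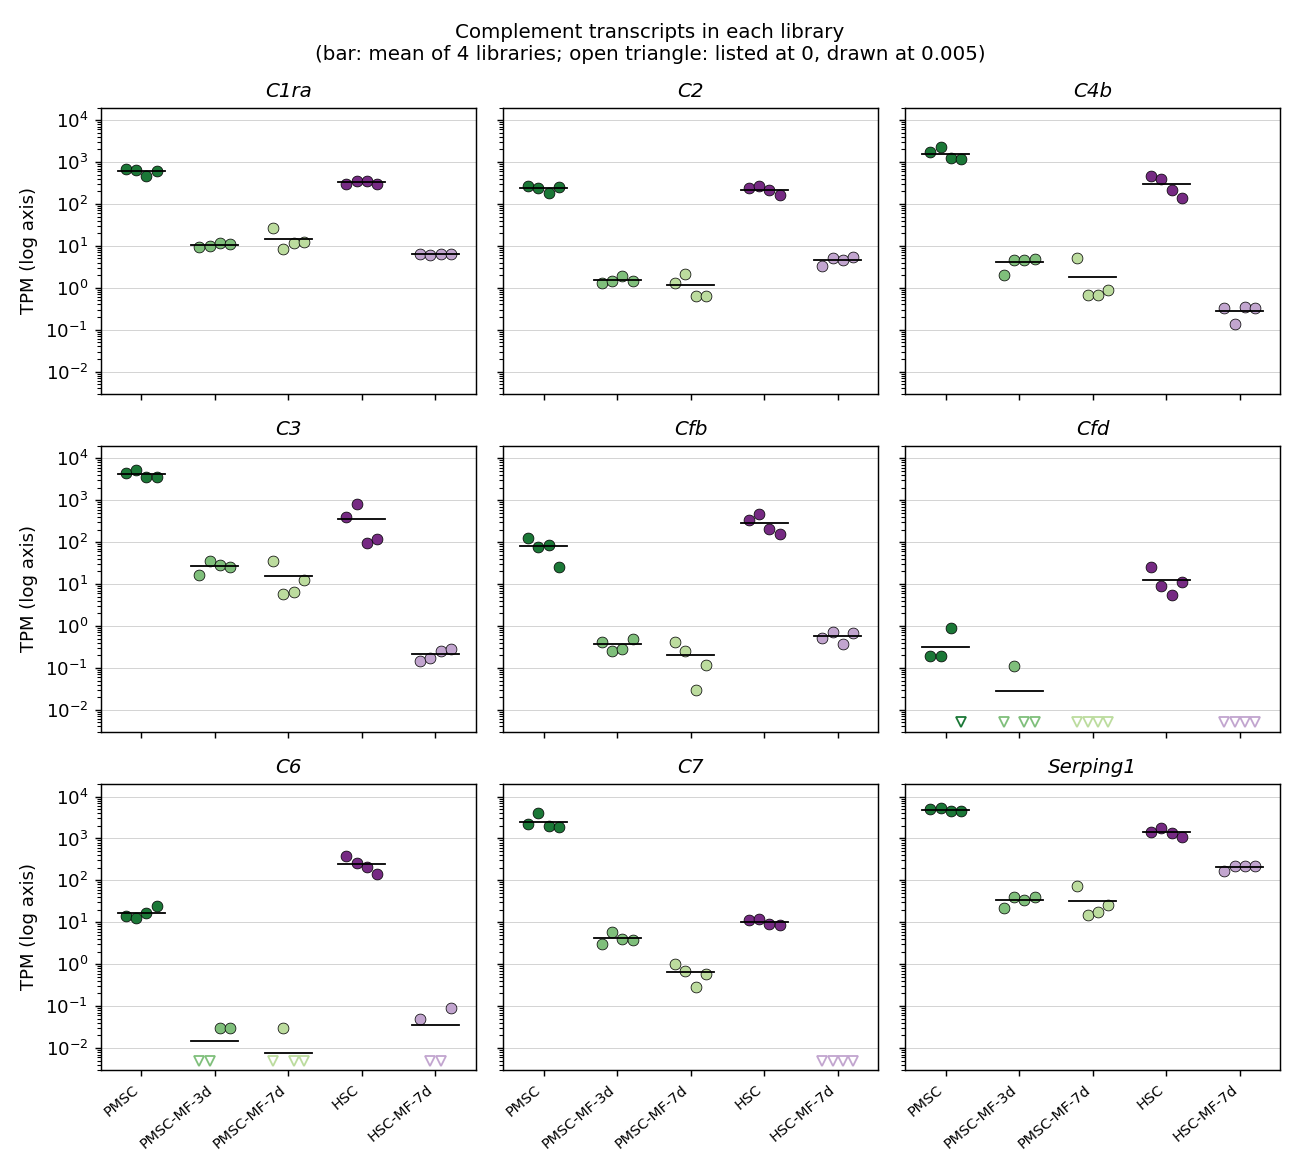
TPM on a log axis (vertical) of each of the 9 transcripts in the 20 libraries, by group (horizontal); points are libraries, bars are means of 4, and open triangles are libraries listed at 0. Each fresh group is far above the cultured ones of its own lineage in every panel but that of Cfd in PMSC. C7 has the widest gap between fresh PMSC and fresh HSC, and Serping1 stays above 170 TPM in HSC-MF-7d.

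Summed counts per library ranged from 11810532 to 26675589. The labelled cell types were checked on marker genes. The 8 portal fibroblast markers, which include Thy1 and Cd34, summed to 17520 to 20750 TPM in fresh PMSC and 26.1 to 54.6 in fresh HSC. The 7 stellate markers summed to 13950 to 22550 TPM in fresh HSC and 1477 to 1865 in fresh PMSC. Fresh HSC also held RNA of other liver cells: 10 hepatocyte markers summed to 16930, 17080, 4259 and 6075 TPM in replicates 1 to 4, 8 macrophage markers to 7717, 3799, 3305 and 2382 TPM, and 8 endothelial markers to 4970 to 6572 TPM. None of these hepatocyte, macrophage or endothelial markers was at 0 in any fresh HSC library. In fresh PMSC the hepatocyte sum was 663.7 to 1202 TPM, of which Cyp2e1 gave 887 ± 216 (SD, n = 4) and Alb 58.2 ± 40.8 (SD, n = 4). Tat was at 0 in 2 PMSC libraries and Hnf4a in 1. In cultured libraries the hepatocyte sum was at most 3.18 TPM. Fold changes against fresh HSC are therefore also given for replicates 3 and 4 alone, an alternative added after these sums were seen; ratios and floors from counts are given for the 4 libraries only.

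Differences were tested with edgeR's quasi-likelihood test on counts over 14751 genes that passed a filter on low counts, with p-values adjusted by Benjamini-Hochberg over those genes and called under 0.05. All 9 complement genes passed the filter. Cfd passed through fresh HSC alone, where it was high, and had at most 5 counts over the 4 libraries of any other group, so it had to differ and is left out of the counts that follow. Between fresh cell types, 6 of the other 8 were higher in PMSC (C1ra, C2, C4b, C3, C7, Serping1) and 2 were lower (Cfb, C6), against 33.6% and 40.1% of all tested genes. From fresh PMSC to PMSC-MF-3d, all 8 fell, where 41.1% of all tested genes fell and 37.2% rose. From fresh PMSC to PMSC-MF-7d all 8 fell, where 39.0% of all tested genes fell and 38.1% rose. From fresh HSC to HSC-MF-7d all 8 fell as well, where 38.5% fell and 36.0% rose. The median log2 fold changes of these 8 genes were -7.93, -8.85 and -8.64 in these comparisons, with C7, which had no counts in HSC-MF-7d, set at a floor of 3 counts over the group, and those of all tested genes were -0.07, 0.00 and -0.03. The portal comparisons share the fresh PMSC libraries. C6, among the 8, had at most 3 counts over the libraries of any cultured group. It passed the filter through the fresh groups alone, so it had to fall in culture and adds nothing to those counts. The medians still include C6, at -10.08, -10.77 and -12.65 in the same order.

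**Figure D2:**
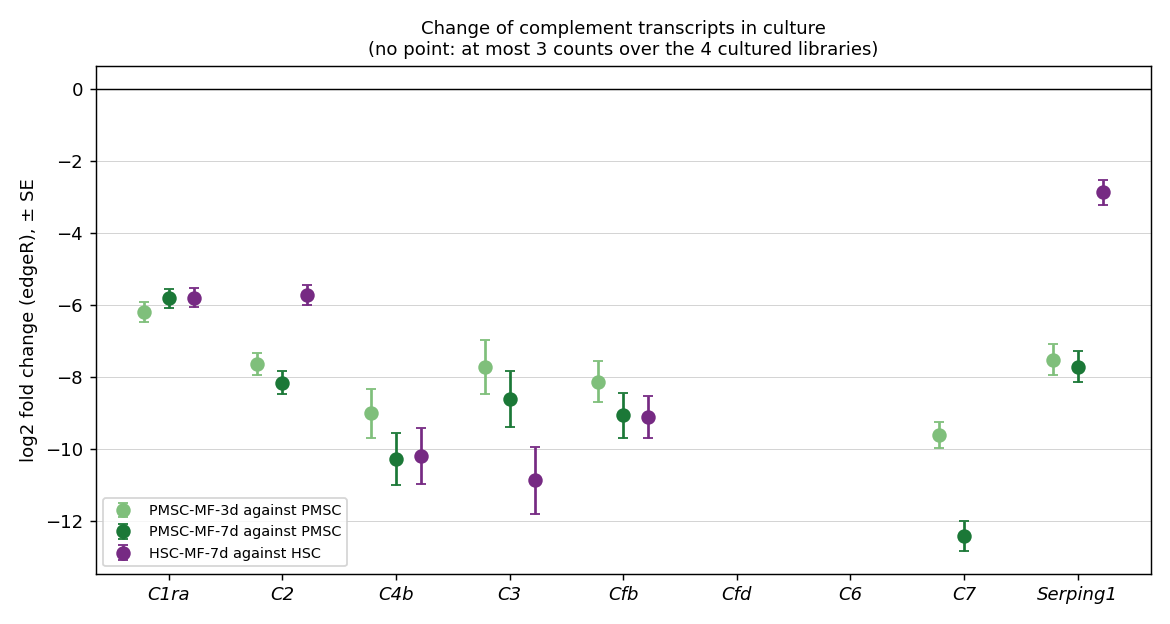
Log2 fold change (vertical) with its standard error from the edgeR model, of each gene (horizontal) from fresh to cultured cells, with 4 libraries a group; no point is drawn where the cultured group had at most 3 counts in all. Serping1 and C2 fell less in the stellate lineage than in the portal one, and C1ra fell by nearly the same amount in both.

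Positions are those in GRCm38.p6, to which the mm10 build of the submitters' processing notes corresponds. Cfb lies at chr17:34856374-34862514 and C2 at chr17:34862602-34882100, on the minus strand with 87 bases between them. GENCODE also annotates a protein-coding gene, Gm20547, over both of them on that strand, so their reads may be shared. C4b lies at chr17:34728139-34743902 on the minus strand. C3 is farther along that chromosome, at chr17:57203967-57228136 on the minus strand. C6 (chr15:4727067-4804045, plus strand) and C7 (chr15:4987750-5063773, minus strand) are neighbours in the sense that 183704 bases separate them. C1ra is at chr6:124512621-124523440 (plus strand), Cfd at chr10:79890853-79892655 (plus strand) and Serping1 at chr2:84765360-84775444 (minus strand). Zbtb12 overlaps C2 on the opposite strand, and whether counting used strand is not stated in these sources.

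RefSeq promoter sequences of GRCm38.p6 matched 5 of the 9 genes, C1ra, C3, Cfd, C6 and C7. The 250 bases before the annotated start are shown for C7 and C3, which had the largest fold changes of the genes higher in fresh PMSC than in fresh HSC, and for C1ra, which fell with them in culture. The C6 window is not shown, since its RefSeq start lies inside the gene as positioned above. Each reads 5′ to 3′ in the direction of the gene, and capitals mark a match to a motif on either strand. The windows are chr17:57228137-57228386 (minus strand), chr15:5063774-5064023 (minus strand) and chr6:124512371-124512620 (plus strand) in the order of the lines.
C3: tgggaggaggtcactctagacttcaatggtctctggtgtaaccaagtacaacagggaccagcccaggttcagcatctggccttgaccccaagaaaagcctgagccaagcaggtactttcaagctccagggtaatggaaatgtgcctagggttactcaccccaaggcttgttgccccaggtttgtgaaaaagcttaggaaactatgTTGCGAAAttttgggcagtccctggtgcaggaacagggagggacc
C7: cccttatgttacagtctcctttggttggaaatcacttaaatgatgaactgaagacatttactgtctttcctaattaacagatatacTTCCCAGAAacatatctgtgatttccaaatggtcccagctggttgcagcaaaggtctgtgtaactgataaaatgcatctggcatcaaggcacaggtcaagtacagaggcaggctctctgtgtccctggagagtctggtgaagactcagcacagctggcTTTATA
C1ra: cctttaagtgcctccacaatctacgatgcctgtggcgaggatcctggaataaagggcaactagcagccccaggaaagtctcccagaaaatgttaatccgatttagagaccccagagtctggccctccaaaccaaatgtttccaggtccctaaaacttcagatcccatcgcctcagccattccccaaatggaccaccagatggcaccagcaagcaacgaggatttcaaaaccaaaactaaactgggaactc
The motifs searched were TATAAA (the core promoter box of that name), TTCNNNGAA (STAT factors), TTGCNNAA (C/EBP factors), the interferon-stimulated response element taken as GAAA repeated after any 2 bases, the AP-1 motif taken as TGA followed after any 1 base by TCA, and the kappa B motif. No motif contains another, and each was searched on both strands. C3 held a match to the C/EBP letters at bases -45 to -38 from its start, which 9.6% of 32851 promoter windows of that length also hold. C7 held a STAT match at bases -164 to -156 and a TATAAA match on the opposite strand at bases -6 to -1, motifs found in 7.0% and 12.4% of windows. C1ra, C6 and Cfd held none of these letters in their windows. The interferon, AP-1 and kappa B motifs were found in 3.0%, 6.7% and 7.3% of all windows. A match is only a match of letters.

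C1ra encodes the protease C1r, which activates C1s within the first complex of the classical pathway. In replicates 1 to 4 its level was 684, 646, 460 and 600.5 TPM in fresh PMSC and 307, 355, 353 and 296 TPM in fresh HSC. All PMSC libraries were above all HSC libraries, and the log2 fold change was 1.25 ± 0.22 (SE, adjusted p = 3.8e-05, edgeR), or 1.31 ± 0.30 with HSC replicates 3 and 4 alone. The level was 9.58, 9.86, 11.9 and 11.2 TPM in PMSC-MF-3d, 27.1, 8.49, 11.6 and 12.4 TPM in PMSC-MF-7d, and 6.55, 6.13, 6.56 and 6.31 TPM in HSC-MF-7d. Both portal myofibroblast groups were above every stellate one, and the PMSC-MF-7d value rested in part on its replicate 1, the highest cultured library. C1ra fell in both lineages, with log2 fold changes of -6.20 ± 0.27 in PMSC-MF-3d and -5.80 ± 0.27 in HSC-MF-7d (SE, adjusted p = 9.0e-14 and 4.0e-13, edgeR). The latter was -5.72 ± 0.31 against HSC replicates 3 and 4 alone. PMSC-MF-3d and PMSC-MF-7d overlapped, at a difference of 0.38 ± 0.23 (adjusted p = 0.21, edgeR). The difference of the culture changes of the lineages was -0.02 ± 0.32 (adjusted p = 0.99, edgeR), and -0.06 ± 0.38 with HSC replicates 3 and 4 alone. PMSC-MF-7d was 1.23 ± 0.24 higher than HSC-MF-7d (adjusted p = 2.9e-04, edgeR). C1rb, the near-identical copy, had at most 8 counts over the 4 libraries of a group, and RSEM divides the reads such a pair shares.

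C4b encodes the fourth component, whose larger fragment binds to targets and joins C2 to form the classical convertase. Fresh PMSC held 1711, 2268, 1268 and 1155 TPM and fresh HSC 476, 397, 217 and 135 TPM. PMSC was higher in every library, by 2.76 ± 0.51 on the log2 scale (SE, adjusted p = 7.5e-05, edgeR), and by 3.62 ± 0.69 with HSC replicates 3 and 4 alone. In culture the level was 2.03, 4.63, 4.65 and 4.93 TPM in PMSC-MF-3d, 5.08, 0.67, 0.66 and 0.87 TPM in PMSC-MF-7d, and 0.33, 0.14, 0.34 and 0.33 TPM in HSC-MF-7d. Replicate 1 of PMSC-MF-7d was alone in reaching the day 3 levels, and every HSC-MF-7d library was lower than every portal one. From fresh cells C4b fell, with log2 fold changes of -10.29 ± 0.72 in PMSC-MF-7d and -10.21 ± 0.78 in HSC-MF-7d (SE, adjusted p = 1.1e-10 and 4.3e-10, edgeR). The latter was -9.33 ± 0.77 against HSC replicates 3 and 4 alone. PMSC-MF-7d was above HSC-MF-7d by 2.68 ± 0.76 (adjusted p = 0.0064, edgeR), but without PMSC-MF-7d replicate 1 the difference was 1.43 and no longer passed (adjusted p = 0.086). Against PMSC-MF-3d the 7 day group was at -1.27 ± 0.54 (adjusted p = 0.073), and at -2.54 without that replicate (adjusted p = 6.0e-04). C4a, a near-identical copy listed as a transcribed pseudogene, was at 1.87 ± 0.254 TPM in fresh PMSC (SD, n = 4), and how reads were split between the copies is uncertain.

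C2 encodes the protease that C4 carries in the classical convertase. It was the gene most alike in the fresh groups, at 267, 247, 184 and 261 TPM in PMSC and 237, 274, 212 and 161 TPM in HSC. The groups overlapped, and the log2 fold change of 0.49 ± 0.22 passed narrowly (SE, adjusted p = 0.0499, edgeR). It did not pass in 9 of 17 alternatives, with values from 0.13 to 0.79. In culture the order was turned: HSC-MF-7d held 3.29, 5.16, 4.63 and 5.29 TPM, PMSC-MF-3d 1.31, 1.43, 1.96 and 1.48 TPM, and PMSC-MF-7d 1.27, 2.14, 0.64 and 0.62 TPM. Every stellate myofibroblast library was above every portal one, with log2 fold changes of -1.97 ± 0.31 for PMSC-MF-7d and -1.45 ± 0.29 for PMSC-MF-3d against HSC-MF-7d (SE, adjusted p = 2.7e-05 and 3.1e-04, edgeR). C2 fell from fresh PMSC to PMSC-MF-7d (-8.17 ± 0.32) and from fresh HSC to HSC-MF-7d (-5.72 ± 0.28, or -5.39 ± 0.27 against HSC replicates 3 and 4 alone). The difference of these culture changes was -2.46 ± 0.38 (SE, adjusted p = 1.4e-05, edgeR), with 29.2% of all tested genes called in this direction and 31.4% in the other. It was -2.75 ± 0.39 with HSC replicates 3 and 4 alone.

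C3 encodes the component on which the pathways meet. Fresh PMSC held 4422, 5406, 3576 and 3668 TPM, and C3 ranked 12 to 28 of 24848 genes by TPM in these libraries. Fresh HSC held 407, 822, 94.1 and 120.0 TPM, all below PMSC, and the log2 fold change was 3.91 ± 0.63 (SE, adjusted p = 1.5e-05, edgeR). With HSC replicates 3 and 4 alone it was 5.75 ± 0.70. The level was 16.6, 35.3, 28.2 and 25.6 TPM in PMSC-MF-3d, 35.8, 5.67, 6.63 and 12.8 TPM in PMSC-MF-7d, and 0.15, 0.17, 0.26 and 0.28 TPM in HSC-MF-7d. The portal myofibroblast groups overlapped each other and lay above every stellate myofibroblast library. PMSC-MF-7d was higher than HSC-MF-7d by 6.16 ± 0.87 (adjusted p = 8.3e-06, edgeR) and PMSC-MF-3d by 7.07 ± 0.87 (adjusted p = 1.2e-06, edgeR). The log2 fold changes of C3 from fresh cells were -7.72 ± 0.75 at day 3 and -8.63 ± 0.78 at day 7 in the portal cultures, and -10.88 ± 0.94 in HSC-MF-7d. Against HSC replicates 3 and 4 alone the last was -9.02 ± 0.71. The difference of the culture changes, 2.25 ± 1.10, did not pass (adjusted p = 0.083, edgeR), and it was 0.43 ± 0.96 with HSC replicates 3 and 4 alone. With limma on log2(TPM + 1) this difference changed sign, to -0.69. It passed with DESeq2 (2.17, adjusted p = 0.027), without HSC replicate 3 (2.59, adjusted p = 0.034, edgeR) and with PMSC-MF-3d in place of PMSC-MF-7d (3.16, adjusted p = 0.016, edgeR). From day 3 to day 7 C3 was at -0.91 ± 0.57 (adjusted p = 0.23), and at -1.73 without PMSC-MF-7d replicate 1 (adjusted p = 0.032).

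Across the fresh HSC libraries C3 varied 8.73-fold, together with hepatocyte transcripts. The terminal components C8a, C8b, C9 and Hc (the mouse C5 gene), which hepatocytes are known to make, summed to 237, 431, 51.4 and 72.0 TPM in replicates 1 to 4. C3 divided by this sum was 1.72, 1.90, 1.83 and 1.67, a 1.14-fold range. This ratio was chosen after the values were seen. With C8g, another terminal gene, added to the sum the range was 1.41-fold, and C3 divided by the sum of the 10 hepatocyte markers ranged 2.44-fold. In fresh PMSC the same ratio was at least 1980, with C9 at 0 to 0.72 TPM and C8a at 0 to 0.56 TPM. C4b and Cfb were also higher in HSC replicates 1 and 2 than in 3 and 4, with 3.52-fold and 2.94-fold ranges, but their ratios to the terminal sum ranged 4.58-fold and 3.81-fold. C1ra varied 1.2-fold, Serping1 1.58-fold and C2 1.7-fold across the same libraries, where the hepatocyte marker sum varied 4.01-fold. How much of the HSC level of each gene came from hepatocyte RNA was not tested.

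**Figure D3:**
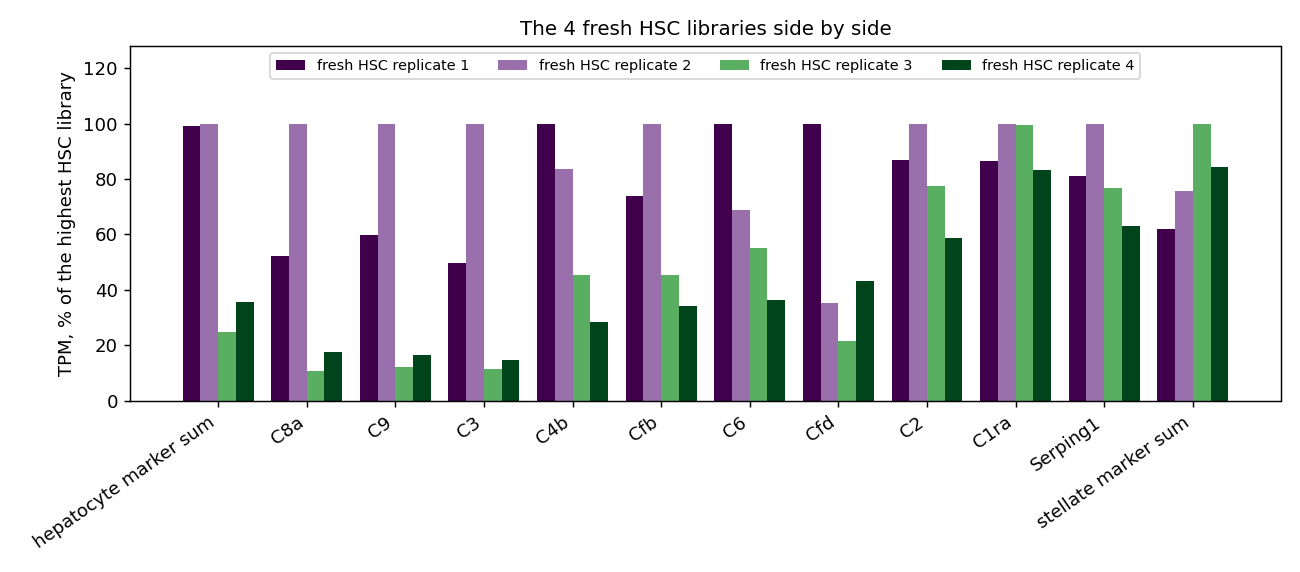
Level of each transcript or marker sum (horizontal) in the 4 fresh HSC libraries as a percentage of the highest of them (vertical). C3 is laid out like C8a and C9, high in replicates 1 and 2 and low in 3 and 4, while C1ra varies 1.2-fold.

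Cfb and Cfd encode factors B and D of the alternative pathway. Cfb was at 129, 76.0, 85.2 and 25.5 TPM in fresh PMSC and 344, 465, 211 and 158.5 TPM in fresh HSC. The lowest HSC library was above all PMSC libraries in TPM, but the groups overlapped in CPM (counts scaled to library size), with a log2 fold change of -1.52 ± 0.37 (SE, adjusted p = 0.0012, edgeR). With HSC replicates 3 and 4 alone it was -0.78 ± 0.40 and did not pass (adjusted p = 0.099). In culture Cfb was at 0.03 to 0.50 TPM in the portal and 0.38 to 0.70 TPM in the stellate myofibroblasts. The log2 fold changes were -9.07 ± 0.62 in PMSC-MF-7d and -9.11 ± 0.58 in HSC-MF-7d (SE, adjusted p = 6.6e-11 and 3.4e-11, edgeR). The latter was -8.34 ± 0.56 against HSC replicates 3 and 4 alone. The difference of these changes was 0.03 ± 1.06 (SE, adjusted p = 1, edgeR), too wide an error to show that the lineages were alike.

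Cfd was a transcript of fresh HSC, at 25.4, 8.92, 5.50 and 10.9 TPM, from 144, 47, 32 and 53 counts. Fresh PMSC had 1, 1, 3 and 0 counts, fewer than any fresh HSC library, and no test is given because the filter kept Cfd through fresh HSC. HSC-MF-7d and PMSC-MF-7d had none, and PMSC-MF-3d had 1. At a floor of 3 counts over the group, Cfd was at least 99.5-fold lower in HSC-MF-7d than in fresh HSC. The portal culture changes rest on 5 counts in fresh PMSC, so that the level in PMSC-MF-7d was at least 3.11-fold lower. The library with the most Cfd, HSC replicate 1, also had the highest macrophage and lymphocyte marker sums, 7717 and 105.8 TPM, and whether these cells gave its Cfd was not tested.

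C6 and C7 encode consecutive members of the membrane attack pore, and they stood on opposite sides of the fresh comparison. C7 was at 2209, 3950, 1944 and 1909 TPM in fresh PMSC and at 11.3, 12.2, 8.87 and 8.74 TPM in fresh HSC. Its log2 fold change was 8.31 ± 0.34 (SE, adjusted p = 1.3e-12, edgeR), a 316-fold difference and the largest among the 9 genes. C6 was at 14.4, 12.6, 16.3 and 24.5 TPM in fresh PMSC and at 380, 261, 209 and 139 TPM in fresh HSC, with a log2 fold change of -3.50 ± 0.26 (SE, adjusted p = 4.9e-10, edgeR). No library of one fresh group reached the other for either gene. With HSC replicates 3 and 4 alone the values were 8.58 ± 0.48 for C7 and -2.94 ± 0.21 for C6. The order of C6 over the HSC libraries, from replicate 1 down to 4, was also that of C4b and of the macrophage marker sum. Whether macrophage RNA gave part of the C6 or C4b level was not tested.

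In culture C7 was the gene that fell on from day 3 to day 7. It was at 3.12, 5.73, 4.01 and 3.77 TPM in PMSC-MF-3d and 1, 0.69, 0.28 and 0.57 TPM in PMSC-MF-7d, with no overlap. The log2 fold change was -2.80 ± 0.35 (SE, adjusted p = 1.2e-05, edgeR), in a comparison where 17.4% of all tested genes fell and 18.6% rose and no other of the 9 passed. From fresh PMSC to PMSC-MF-7d the log2 fold change was -12.42 ± 0.41. All 4 HSC-MF-7d libraries had no C7 counts, a level at least 289-fold under fresh HSC at the floor of 3 counts over the group. Against that floor C7 was at least 117-fold higher in PMSC-MF-3d and at least 16.6-fold higher in PMSC-MF-7d than in HSC-MF-7d. C6 had 2, 1 and 3 counts in all in PMSC-MF-3d, PMSC-MF-7d and HSC-MF-7d. Its fresh to cultured ratio was 1451 for PMSC-MF-3d (95% counting interval 401.1 to 11990), 2927 for PMSC-MF-7d (524.7 to 115700) and 7390 for HSC-MF-7d (2528 to 35840). Intervals and floors cover counting error only.

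Serping1 encodes the C1 inhibitor, which inactivates C1r and C1s. It had the highest mean of the 9 transcripts in fresh PMSC, at 5040, 5344, 4454 and 4581 TPM, ranks 13 to 19 of all genes. Fresh HSC held 1427, 1758, 1352 and 1111 TPM, all lower, and the log2 fold change was 2.15 ± 0.34 (SE, adjusted p = 1.1e-05, edgeR), or 2.4 ± 0.48 with HSC replicates 3 and 4 alone. In culture the order of the lineages was turned. HSC-MF-7d held 170.4, 222.2, 223.2 and 221.4 TPM, PMSC-MF-3d 22.5, 39.3, 34.5 and 40.3 TPM, and PMSC-MF-7d 72.3, 14.7, 18.0 and 25.3 TPM. Every stellate myofibroblast library was above every portal one, with log2 fold changes of -2.68 ± 0.35 for PMSC-MF-7d (adjusted p = 3.5e-06, edgeR) and -2.5 ± 0.35 for PMSC-MF-3d (adjusted p = 5.6e-06, edgeR). From fresh cells the log2 fold change was -7.72 ± 0.44 in PMSC-MF-7d and -2.88 ± 0.35 in HSC-MF-7d, the smallest of the 9 genes in that lineage. Against HSC replicates 3 and 4 alone the latter was -2.61 ± 0.41. The difference of the culture changes was -4.83 ± 0.49 (SE, adjusted p = 7.0e-08, edgeR), and -5.07 ± 0.63 with HSC replicates 3 and 4 alone. Serping1 and C2 were the 2 genes called in that difference, both lower. C6, C7 and Cfd give no interpretable difference, since a cultured group had at most 3 counts.

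Between the myofibroblast groups, C1ra, C4b, C3 and C7 were higher in PMSC-MF-7d than in HSC-MF-7d, and C2 and Serping1 were lower, against 23.9% and 23.1% of all tested genes. The same 4 were higher and the same 2 lower in PMSC-MF-3d, against 27.2% and 27.4%, in comparisons that share the HSC-MF-7d libraries. Cfb did not pass in either (adjusted p = 0.21 and 0.61, edgeR). PMSC-MF-7d replicate 1 was the highest of its group for C1ra, C4b, C3, C7, Cfb and Serping1. It was also the highest for C1s1, at 51.6 TPM against 9.34 to 18.4, and for Cd34, at 27.6 against 8.3 to 12.8. Without it C3, C4b and Serping1 fell from day 3 to day 7 along with C7, with -0.90 for Serping1 (adjusted p = 0.0033, edgeR).

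Of the further complement genes that were tested, most were called lower in fresh PMSC than in fresh HSC. Of 50 further complement genes, 43 passed the filter, and in fresh PMSC 3 were higher and 36 lower than in fresh HSC. Of the 43, 17 passed through fresh HSC alone and had to differ. Of the other 26, 3 were higher and 20 lower, beside 33.6% and 40.1% of all tested genes. The median log2 fold change of the 26 was -3.22 where all tested genes had -0.10. Some of the 26 passed through stellate groups and had to be lower in fresh PMSC, so these values are partly fixed by the filter. C1qa was such a gene, with 40 counts over the fresh PMSC libraries and 24657 over the fresh HSC ones. Among the 3 higher genes were C1s1 (2.02 ± 0.32), the protease cut by C1r, and the scavenger collectin gene Colec12 (5.61 ± 0.23). With HSC replicates 3 and 4 alone 6 of the 43 were higher and 34 lower. The C1q genes, known as macrophage transcripts, had means of 894 to 1046 TPM in fresh HSC and C1qa had 1.27 in fresh PMSC. The terminal genes Hc, C8a, C8b, C8g and C9 passed the filter through fresh HSC alone. Lectin pathway genes led fresh HSC, with Fcna at 3629 ± 474, Colec11 at 3183 ± 544, Colec10 at 1841 ± 328 and Masp1 at 1790 ± 342 TPM (SD, n = 4). Of these, Colec11 is also among the stellate markers.

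**Figure D4:**
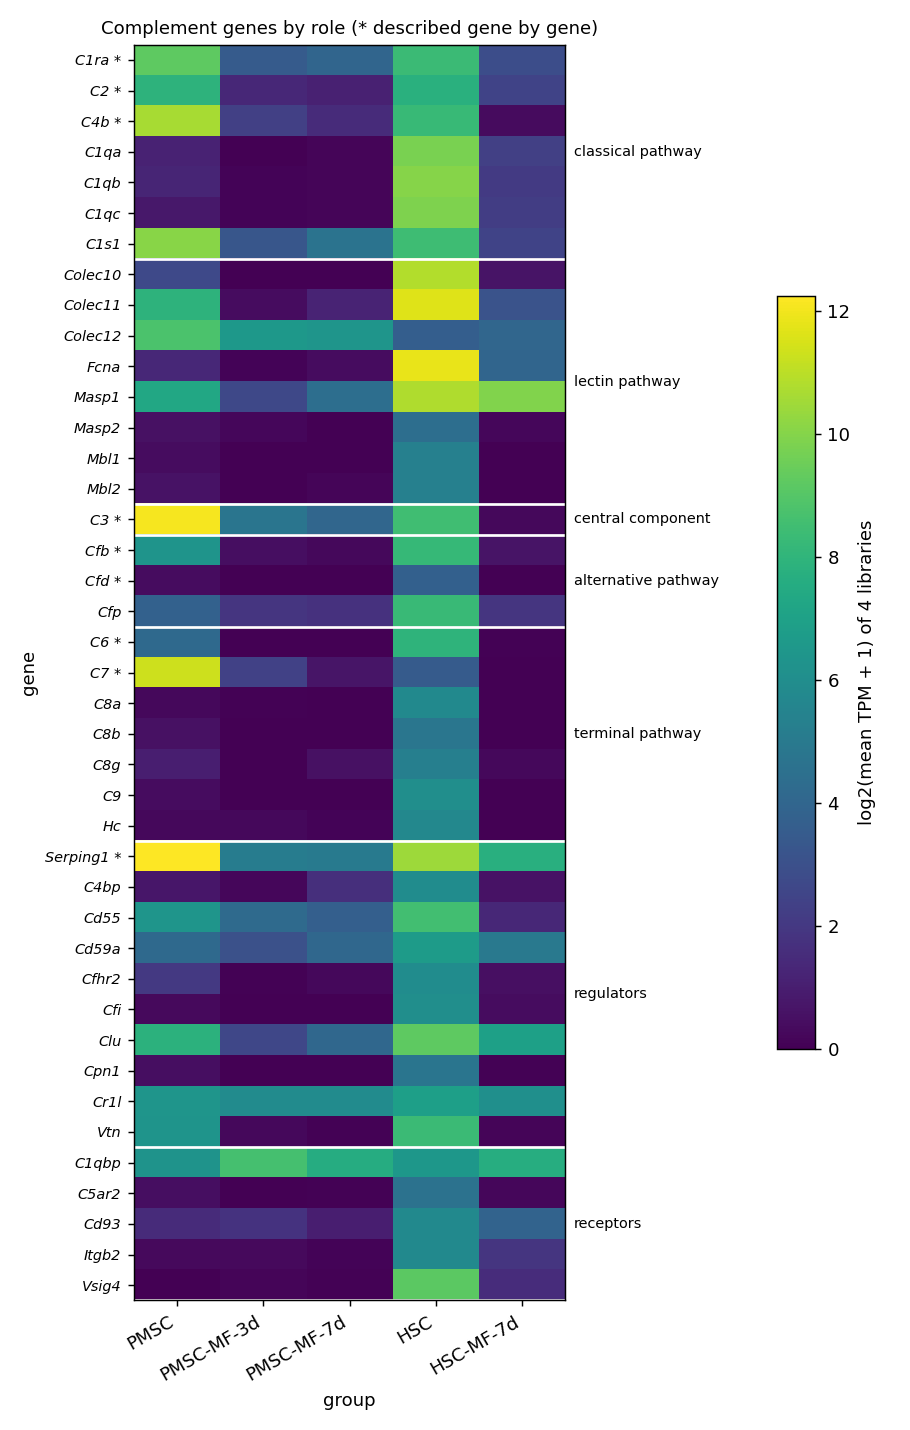
Colour gives log2(mean TPM + 1) over the 4 libraries of each group (horizontal) for the 9 genes, marked with a star, and 32 further complement genes with a group mean of at least 20 TPM (vertical), by role. Most genes are dark in the 3 cultured groups, and Masp1, Serping1, Clu, Cr1l and C1qbp keep colour in HSC-MF-7d. Cr1l and C1qbp keep it in PMSC-MF-3d and PMSC-MF-7d too, as does Colec12.

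In culture most of these genes fell too. From fresh HSC to HSC-MF-7d 24 of the 26 genes that did not pass through fresh HSC alone fell, with a median log2 fold change of -5.69. Of all tested genes 38.5% fell and 36.0% rose. C1qbp, a mitochondrial C1q-binding protein gene, rose (1.06 ± 0.14, adjusted p = 8.4e-07, edgeR). Some of the 26, such as Vtn, passed through the fresh groups alone and had to fall in culture. Vtn had 14, 3 and 5 counts over the libraries of PMSC-MF-3d, PMSC-MF-7d and HSC-MF-7d. The falls counted among the 26 are thus partly fixed by the filter. From fresh PMSC 22 of the 26 fell and 2 rose in PMSC-MF-3d, and 21 fell and 2 rose in PMSC-MF-7d. C1qbp was among those that rose, at 2 ± 0.14 and 0.87 ± 0.14 in that order (adjusted p = 8.6e-11 and 1.0e-05, edgeR). Of all tested genes 41.1% and 39.0% fell. Of all 43, 29 (67.4%) and 27 (62.8%) fell. With only the groups compared in the model 16 and 15 fell, and how many were then tested is not given. C1s1 fell as C1ra did, with -5.96 ± 0.39 in PMSC-MF-7d and -6.35 ± 0.40 in HSC-MF-7d. Masp1, a protease of the lectin pathway, stayed at 973 ± 59.5 TPM in HSC-MF-7d (SD, n = 4) with a log2 fold change of -0.99 ± 0.24 there and -3.45 ± 0.26 in PMSC-MF-7d, and a difference of -2.46 ± 0.34 (SE, adjusted p = 4.5e-06, edgeR). Clu and Colec12 also passed in that direction, at -1.99 ± 0.41 and -3.17 ± 0.28. Of the 26, 7 passed in the other, where 31.4% of all tested genes did. Cd55, which encodes a membrane inhibitor of the convertases, was among them (4.76 ± 0.46). Of all 43, 13 did (30.2%), but this count holds genes that passed the filter through fresh HSC alone. It was 22 with DESeq2 and 35 and 32 with limma. From PMSC-MF-3d to PMSC-MF-7d 8 of the 26 rose, Masp1 (1.85 ± 0.26) and C1s1 (1.34 ± 0.33) among them, and 2 fell. Of all tested genes 18.6% rose and 17.4% fell. Between the myofibroblasts 5 of the 26 were higher and 13 lower in PMSC-MF-7d than in HSC-MF-7d, beside 23.9% and 23.1% of all tested genes. In PMSC-MF-3d 4 of the 26 were higher and 14 lower, beside 27.2% and 27.4%.

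Over the 20 libraries the 9 genes were correlated with one another on the log2 CPM scale, from r = 0.23 for Cfd with C7 to r = 0.98 for C1ra with C4b and for Cfb with C6. These values are descriptions, since the points share the contrast of fresh and cultured cells. Among genes with at least 20 CPM in their highest group, the gene most like C1ra was its partner C1s1 (r = 0.992). The closest were Art4 for C2 (r = 0.992), Abca9 for C4b (r = 0.991), Map3k5 for C3 (r = 0.985), Slco2b1 for Cfb (r = 0.989) and Ms4a6c for Cfd (r = 0.981). They were Selenop for C6 (r = 0.991) and Cdkn1c for Serping1 (r = 0.986).

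Changes are relative to TMM scaling. With scaling by library totals the median of all tested genes shifted by -0.34 for fresh PMSC against fresh HSC, by 0.48 and 0.43 for PMSC-MF-3d and PMSC-MF-7d against fresh PMSC, by 0.11 for the stellate culture and by 0.34 for the difference of culture changes. The share of higher calls moved from 45.6% to 33.3%, from 47.5% to 61.7%, from 49.4% to 63.5%, from 48.4% to 53.2% and from 51.8% to 66% in that order. Under that scaling every direction of the 9 genes was kept except those of C1ra (0.33) and C4b (0.29) in the difference of culture changes, which pass under neither, and C2 did not pass between fresh groups (0.15).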

How the data were processed

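The labels' protocols name the RNeasy Micro kit for RNA and a KAPA stranded mRNA kit for libraries. FastQC, Trimmomatic, STAR 2.5.3a, RSEM 1.2.28 and the mm10 build are named in the submitters' processing notes, without settings. Each library has a deposited table of 24848 genes. The authors' expected counts are RSEM estimates without normalization, per the file headers. The deposited TPM values are scaled by RSEM for transcript length and library, as the columns are named. FPKM columns, which the authors also deposited, were not used.

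Libraries were grouped by title. After rounding, expected counts went into edgeR 4.0.16 (R 4.3.3). There filterByExpr left out 10097 genes and kept 14751, libraries were scaled by TMM, and the quasi-likelihood fit (robust) took 1 mean per group over all 20 libraries. P-values were adjusted by Benjamini-Hochberg over all tested genes. Comparisons were the 7 between groups or pairs given above and the difference of culture changes, (PMSC-MF-7d minus PMSC) minus (HSC-MF-7d minus HSC). A standard error is the size of the unshrunk log2 fold change over the square root of F. No fold is given where both groups have at most 3 counts. The model was tested on simulated data. Alternatives were size factors of DESeq2 1.42.0, DESeq2 itself, library totals, no filter, only the groups compared, a replicate block, limma 3.58.1 on log2(TPM + 1) and log2(TPM + 0.1), and each library left out. Fresh HSC replicates 3 and 4 alone were added after the data were seen.

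The 9 genes, the further complement genes and the marker lists were chosen with earlier results of these data known. The genes named are the 9, further complement genes with a group mean of at least 20 TPM, and for each of the 9 the most correlated genes; 2 genes these rules name are not reported here. Of 51 further complement genes written down 50 were found. No libraries agreed within counting noise, with mean chi-square per gene of 3.36 to 86.7 between replicates where 1 is counting noise. Same-numbered libraries varied together little (correlations of -0.052 to 0.145). Between PMSC-MF-3d and PMSC-MF-7d these correlations were 0.002 to 0.122, and 3 libraries matched their own number best. No label says that a number marks a shared origin, so numbers were not taken as pairs.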

Additional observations from a re-analysis of the deposited data

Results flagged for a closer look

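Of 42 sets of 4 libraries checked, 6 held a library that stood apart from the other 3 by Dixon's criterion, where chance gives about 1 in 20. C4b did so in each cultured group: PMSC-MF-3d replicate 1 was low (5.02 CPM), PMSC-MF-7d replicate 1 was high (11.1 CPM) and HSC-MF-7d replicate 2 was low (0.304 CPM). Serping1 was low in HSC-MF-7d replicate 1 (119 CPM). Cfd in PMSC-MF-3d replicate 2 (0.0375 CPM) and C6 in PMSC-MF-7d replicate 2 (0.0408 CPM) were single counts in groups otherwise at 0.

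The culture changes of 2 genes differed between the lineages by the interaction test of edgeR. C2 fell more in portal than in stellate cells (-2.46, adjusted p = 1.4e-05), and so did Serping1 (-4.83, adjusted p = 7.0e-08), with every stellate myofibroblast library above every portal one for both.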

How the results depend on the processing

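Of 1081 values of the 9 genes under alternatives, 1011 kept their direction and side of the threshold, 15 lost the call, 18 gained one and 37 changed sign. In the difference of culture changes no gene was called higher. DESeq2 called 2, limma on log2(TPM + 1) 3 and on log2(TPM + 0.1) 2, PMSC-MF-3d in place of PMSC-MF-7d 1, and leaving out a library 0 to 1 (without HSC replicate 3). C3 was the gene gained with PMSC-MF-3d and without that replicate, and was among those of DESeq2. Cfb (1.58) was among those of limma on log2(TPM + 1). The other genes that DESeq2 and limma called higher were among C6, C7 and Cfd, which give no interpretable difference. Called lower were 2, and 4 with limma on log2(TPM + 1). C4b (-1.61) was gained there, and the other gain was among C6, C7 and Cfd. From PMSC-MF-3d to PMSC-MF-7d 1 was lower: 2 with the replicate block (C4b, -1.63), 2 with either limma setting and 1 to 4 with a library left out, which also gave 0 to 1 higher. The replicate block, whose numbers are not known to pair libraries, changed no other call of the 9 genes. Of the 4 PMSC-MF-3d libraries 3 matched their own number best among those of PMSC-MF-7d.

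Signs changed for values near 0 and for C3 in the difference of culture changes. In the difference of culture changes C1ra (-0.02) was 0.33 with library totals, 0.02 without the filter, 0.13 and 0.21 with limma, and -0.44 to 0.18 with a library left out. C3 (2.25) was -0.69 with limma on log2(TPM + 1). C4b (-0.07) was 0.29 with library totals, 1.2 with PMSC-MF-3d, -0.92 with HSC replicates 3 and 4 alone and -1.32 to 0.22 with a library left out. Cfb (0.03) was -0.05 with DESeq2 size factors, -0.06 with DESeq2, -0.70 with HSC replicates 3 and 4 alone and -0.51 to 0.40 with a library left out. From day 3 to day 7 C1ra ranged from -0.06 to 0.56 and Serping1 from -0.90 to 0.05 with a library left out. The causes were not tested.

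Of 280 counts of other complement genes 11 moved by over 1.5 times. In the difference of culture changes 13 were higher, and 22 with DESeq2 and 35 and 32 with limma. The 13 include genes that passed the filter through fresh HSC alone. In the other direction 4 were lower, and 7 with HSC replicates 3 and 4 alone. With only the groups compared, 16 and not 29 fell in PMSC-MF-3d, and 15 and not 27 in PMSC-MF-7d. The number of genes then tested is not given, so these counts may rest on fewer genes. In HSC-MF-7d 2 and not 1 rose in 4 settings, and 6 and not 3 were higher in fresh PMSC with HSC replicates 3 and 4 alone. Depth limits Cfd outside fresh HSC, C6 in culture and C7 in HSC-MF-7d.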
